A study of Mus musculus with 4 samples.

Results

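The genes described here encode the proteins of the cytosolic ribosome. They were taken by symbol: every gene named Rpl or Rps followed by a number, with its lettered and like-named paralogs, plus the stalk proteins Rplp0, Rplp1 and Rplp2 and the laminin-receptor protein Rpsa. The rule gave 84 of the 32285 genes in the count matrices, 52 of the large subunit and 32 of the small one. They lie on 19 chromosomes, with 14 on chromosome 7 and 4 on X.

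The ribosome joins amino acids into protein, and each of its subunits holds ribosomal RNA and a set of proteins, nearly all present once per particle. Their mRNAs are among the most abundant of a cell, begin with a run of pyrimidines at the 5′ end, and are translated together under the control of the mTORC1 kinase. A few of the proteins have a second gene, a paralog, that can take the same place in the particle, and in the pituitary gland the ribosomes on the endoplasmic reticulum make the peptide hormones.

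Male C57BL/6J mice of wild-type genotype ate a high-fat diet (HFD) or a control diet (CTRL) for 12 weeks, and their pituitary glands were taken. There were 2 libraries per diet, called HFD 1, HFD 2, CTRL 1 and CTRL 2, and all 4 came from the same strain, genotype and sex. Cells were freed with collagenase and trypsin, and the 3′ ends of polyadenylated RNA were counted by unique molecular identifier (UMI) with the v3.1 chemistry of the 10x Genomics Chromium. Glands were digested apart from each other, but the labels do not say how many went into a library or whether the 2 libraries of a diet came from different animals, so the p-values measure only how far these samples lie apart, and that spread may be technical.

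The libraries shared cell barcodes unequally. HFD 1 and HFD 2 had 3116 barcodes in common, and in 3102 of them HFD 1 held the shallower copy, with a median of 17.9 times fewer UMIs than its partner. CTRL 2 and HFD 1 had 1423 in common, with the shallower copy in HFD 1 for 1007 and in CTRL 2 for 397, while the other 4 pairs had between 14 and 22. Copies with more than 5 times fewer UMIs than the partner were removed, which took 4104 barcodes from HFD 1, 1 from HFD 2, 15 from CTRL 1 and 399 from CTRL 2. Results with the copies kept as cells stand beside those that changed.

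After filters on genes and mitochondrial UMIs and the removal of putative doublets, 23975 cells remained: 5874 in HFD 1, 6927 in HFD 2, 4347 in CTRL 1 and 6827 in CTRL 2. Median UMIs per cell ran from 10102.5 in HFD 1 to 18010 in CTRL 1. The cells were clustered without the ribosomal protein genes, so that these genes did not shape the classes, and the clusters were named from marker genes, with "-like" because the names rest on RNA alone. One of the 16 clusters, of 288 cells, stayed unnamed. There were 13 named classes, and 10 of them had at least 30 cells in every library and were tested. Of the 5414 lactotrope-like cells, 1291 formed a shallower cluster whose leading genes were Prl and Hmcn1 with the hemoglobin gene Hbb-bs after them. Red blood cell markers scored highest in that cluster, but too few of its cells held 2 of them. At least 2 lactotrope markers were held by 68.5% of its cells, against 98.9% in the other lactotrope-like cluster. The macrophage-like cluster was led by the inflammatory genes Cxcl2, Ccl4 and Il1b, with C1qa, C1qb and C1qc next.

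Ribosomal protein genes gave 38830816 of the 328885605 UMIs of the kept cells. Their share was 12.0% in HFD 1, 11.9% in HFD 2, 11.4% in CTRL 1 and 11.9% in CTRL 2. Barcodes that failed the cell filters held less, 3.01%, 2.54%, 7.10% and 3.66% in the same order. Rpl41, a very short basic protein of the large subunit, had the most UMIs, 1607850, followed by Rps29 and Rpl37. At the other end, Rpl10l had 3 UMIs, Rpl39l 29 and Rpl3l 30 in all cells together. These counts are of 3′ tags, 1 per captured transcript, so they were not divided by length.

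The class with the highest share was T or NK cell-like. Its shares were 25.4% in HFD 1, 29.2% in HFD 2, 22.5% in CTRL 1 and 21.3% in CTRL 2, from 27 to 48 cells a library. Among the tested classes macrophage-like cells were highest, with 16.7% and 18.7% in HFD and 17.5% and 17.8% in CTRL libraries. Pituicyte-like cells, the glia of the posterior lobe, held between 13.3% and 19.4%. Pericyte-like cells, of the capillary wall, held the least, between 8.0% and 9.96%. The 6 hormone classes, the stem-like, the endothelial-like and the mesenchymal-like cells all lay between 10.7% and 13.2% in every library.

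Hormone mRNAs took a large part of the total in the hormone classes. In somatotrope-like cells, which make growth hormone, the 7 hormone genes Gh, Prl, Pomc, Cga, Lhb, Fshb and Tshb took 34.7% of UMIs in HFD 1, 37.8% in HFD 2, 44.0% in CTRL 1 and 38.4% in CTRL 2. With these genes left out of the total, ribosomal protein genes made up 18.3% and 18.6% of somatotrope-like UMIs in HFD and 19.2% and 18.6% in CTRL libraries. On that basis the somatotrope-like share was above that of the other 5 hormone classes in each of the 4 libraries. In stem-like, endothelial-like and macrophage-like cells hormone genes took at most 3.46% of UMIs. In mesenchymal-like cells they took 1.37% in HFD 1, 0.82% in HFD 2, 8.54% in CTRL 1 and 1.63% in CTRL 2.

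**Figure D1:**
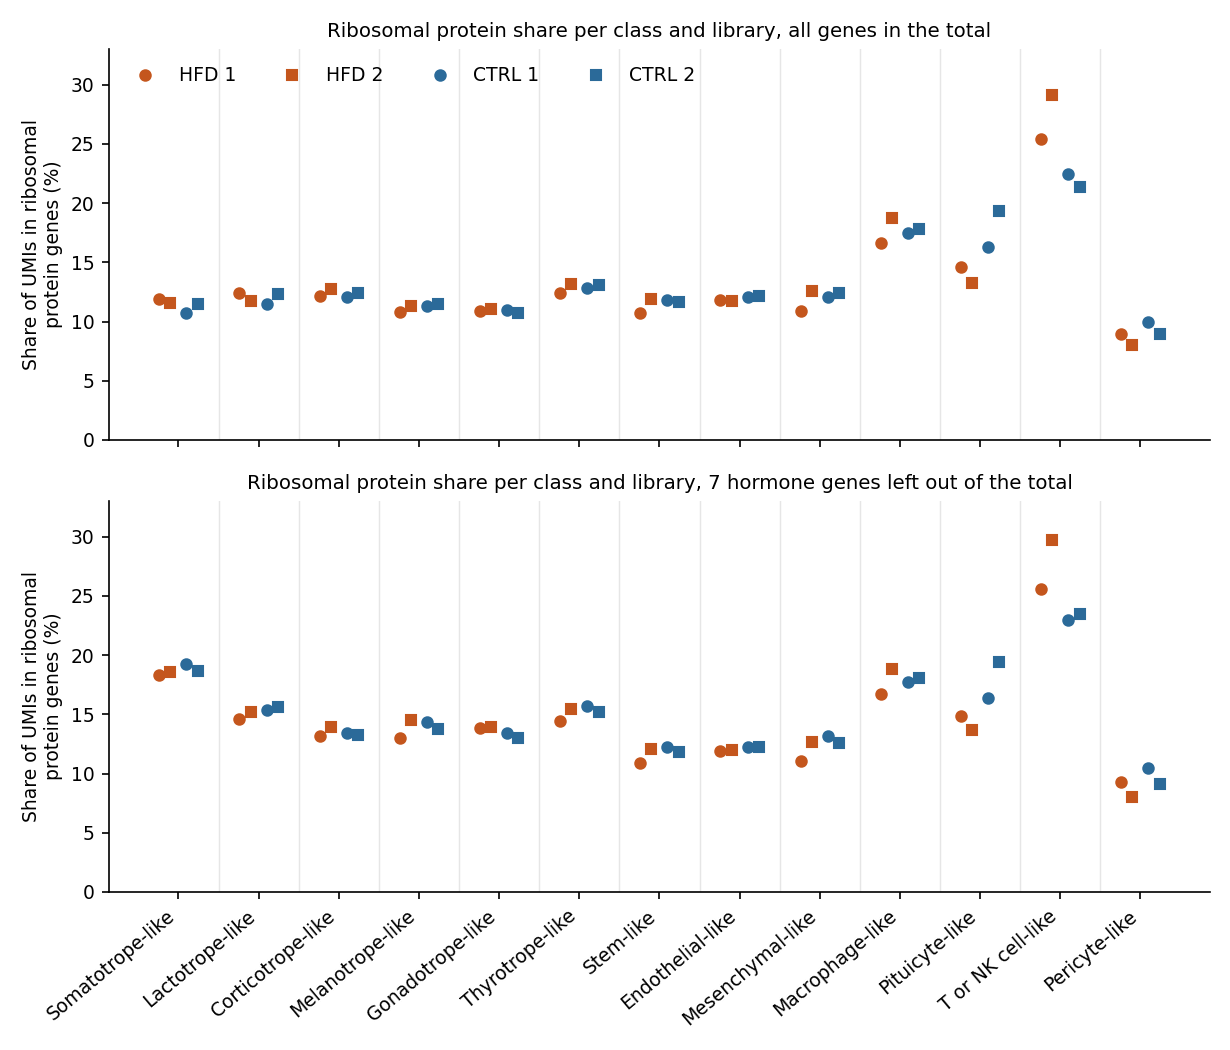
Share of UMIs in the ribosomal protein genes (y axis, percent) for each class (x axis) and library, with all genes in the total (upper panel) and without the 7 hormone genes (lower panel). Each point is 1 library; T or NK cell-like points reach 29.2%, and somatotrope-like points lie between 10.8% and 11.9% above and between 18.3% and 19.2% below.

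The diets differed little in these shares. In somatotrope-like cells the share was 11.9% and 11.5% in HFD and 10.8% and 11.5% in CTRL libraries, a log2 ratio of 0.079. Both HFD libraries were above both CTRL libraries, with HFD 2 at 11.55% and CTRL 2 at 11.47%. Without the hormone genes the order turned round, with 18.4% ± 0.192 in HFD and 18.9% ± 0.418 in CTRL (SD, n = 2 each) and a log2 ratio of -0.038. In gonadotrope-like cells, which make the gonadotropins LH and FSH, the share was 10.9% and 11.0% in HFD and 11.0% and 10.8% in CTRL libraries, and the groups overlapped. In these cells all hormone genes, Gh and Prl included, took 21.3% and 20.7% of UMIs in HFD and 17.8% and 17.6% in CTRL libraries. Gh had 3514 and 6620 CPM (a unit defined below) in HFD and 25548 and 5663 CPM in CTRL libraries. Cga had 192180 and 181230 CPM in HFD and 131490 and 153470 CPM in CTRL libraries. Whether the Gh came from other cells was not tested. Without all the hormone genes, Gh included, the ribosomal protein share was 13.8% and 13.9% in HFD and 13.39% and 13.04% in CTRL libraries. These shares did not overlap. Lactotrope-like shares without them were 14.6% and 15.2% in HFD and 15.4% and 15.6% in CTRL libraries, also with no overlap but with the HFD libraries lower.

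Melanotrope-like cells, of the intermediate lobe, had 10.8% and 11.3% in HFD and 11.3% and 11.5% in CTRL libraries. The HFD libraries lay lower, at 11.32% for HFD 2 against 11.33% for CTRL 1, and with the shared barcodes or the doublets kept, or without the hormone genes, the groups overlapped. Endothelial-like cells had 11.8% in each HFD library and 12.0% and 12.1% in CTRL libraries. No overlap was seen there either, at a log2 ratio of -0.033, but with doublets kept the groups overlapped, at -0.019. In the other 6 tested classes the HFD and CTRL libraries overlapped. With 2 libraries per diet an exact two-sided permutation test of a share cannot go below p = 0.333, so no test of it was made.

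The largest diet differences in share were in the small classes that were not tested for genes. Pituicyte-like cells had 14.6% and 13.3% in HFD and 16.3% and 19.4% in CTRL libraries, from 34, 108, 23 and 59 cells. Their median UMIs per cell were 9162 and 10262 in HFD against 15663 and 14486 in CTRL libraries, and the part of depth in the share was not tested. T or NK cell-like shares averaged 27.3% ± 2.65 in HFD and 21.9% ± 0.829 in CTRL (SD, n = 2 each), with no overlap and a log2 ratio of 0.31, or 0.25 with the shared barcodes kept. Hormone genes, which were not among the markers of this class, took 0.69% and 1.93% of UMIs in HFD and 1.88% and 9.21% in CTRL libraries. Whether T and NK cells were mixed alike was not tested. Without the hormone genes the T or NK cell-like shares were 25.6% and 29.7% in HFD and 22.9% and 23.5% in CTRL libraries.

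Next, each gene's level was compared between the 10 tested classes. The T or NK cell-like, pituicyte-like and pericyte-like cells were not part of this comparison. The unit is CPM, the gene's UMIs per 1000000 UMIs of that class in that library. Among the 81 members at 10 CPM or more in their highest class, the highest and lowest class differed by a median of 0.82 on the log2 scale, and by between 0.35 and 1.92. The median over all 12570 genes at that level was 2.61. Rpl8 had the smallest spread and Rps29 the largest. For 59 of these 81 members the highest of the 10 tested classes was macrophage-like.

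Each class was tested against the mean of the other 9 with edgeR's quasi-likelihood test, on 15759 genes with library as a block, and calls were made at a Benjamini-Hochberg adjusted p under 0.05. Of the 82 members tested, 80 were higher in macrophage-like cells, where 25.1% of all genes were called higher, and 1 was lower, where 32.0% of all genes were. One of the 80 was Rpl39l, of which macrophage-like cells held 6 UMIs. The member median was 1.02 on the log2 scale, against -0.39 for all genes tested. Without TMM scaling, the step that sets libraries to a common level from genes that vary little, 68 members were higher and 5 lower, against 18.4% and 48.4% of all genes, and the medians were 0.56 for members and -0.85 for all genes. The distance between the 2 medians was 1.41 under both scalings. TMM moves all genes of a class and library by a common factor, so this distance stays nearly fixed by construction.

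Rps29, a small zinc-binding protein of the head of the small subunit, had the widest class spread among the 81 members at 10 CPM or more. It reached 10424, 10705, 9316 and 10852 CPM in macrophage-like cells of HFD 1, HFD 2, CTRL 1 and CTRL 2. The next highest tested class, endothelial-like, had 5046, 4336, 4560 and 4537 CPM in the same order, and gonadotrope-like cells had a mean of 2724 ± 149 CPM (SD, n = 4). The macrophage-like difference from the other classes was 1.97 ± 0.038 (log2, SE; edgeR adjusted p = 3.6e-32). All 4 macrophage-like libraries were above every library of every other tested class. The gene lies at chr12:69157722-69159186 on the minus strand of mm10.

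The 3 stalk proteins also peaked in macrophage-like cells. Rplp1, an acidic protein of the stalk that recruits translation factors, averaged 2593 ± 295 CPM in macrophage-like cells, against 766 ± 42.9 CPM in somatotrope-like and 1514 ± 174 CPM in stem-like cells (SD, n = 4 each). Its partner Rplp2 varied less, from 829 ± 25.0 CPM in somatotrope-like to 1524 ± 90.9 CPM in macrophage-like cells. Rplp0, which anchors the stalk, ran from 1101 ± 108 CPM in somatotrope-like to 2202 ± 147 CPM in macrophage-like cells. Rpl39, Rps12, Rpl28, Rps24 and Rps4x were also among the widest-ranging genes that peaked in macrophage-like cells, with log2 differences from the other classes between 1.28 and 1.71.

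Several members were not highest in macrophage-like cells by CPM. Rpl41 had 3387.2, 3658.5, 3437.2 and 3433.7 CPM in macrophage-like cells of HFD 1, HFD 2, CTRL 1 and CTRL 2, the lowest class mean, while lactotrope-like cells averaged 6224 ± 480 CPM and thyrotrope-like cells 6103 ± 214 CPM (SD, n = 4 each). Its macrophage-like difference in the fit was 0.00 ± 0.063 (log2, SE), and without TMM it was lower, at -0.46 (edgeR adjusted p = 7.6e-09). Rpsa, a small-subunit protein first described as a laminin receptor, was highest in stem-like cells at 1927 ± 91.3 CPM, with mesenchymal-like cells at 1874 ± 119 and macrophage-like cells at 1822 ± 144 CPM within the spread. Rps6, the substrate of the S6 kinases downstream of mTORC1, stayed between 471 ± 39.3 CPM in mesenchymal-like and 644 ± 18.6 CPM in somatotrope-like cells. Of the pair that binds 5S ribosomal RNA and can hold back Mdm2, Rpl5 ran from 269 ± 15.8 to 354 ± 8.15 CPM (endothelial-like and lactotrope-like). Its partner Rpl11 did peak in macrophage-like cells, running from 1466 ± 105 to 2299 ± 156 CPM (endothelial-like and macrophage-like; SD, n = 4 each). In the fit Rpsa, Rps6 and Rpl5 were still called higher in macrophage-like cells than in the mean of the others, at 0.65, 0.49 and 0.40 on the log2 scale (edgeR adjusted p at most 1.1e-08). Without TMM Rpsa was higher by 0.18 (edgeR adjusted p = 0.0022), while Rps6 at 0.02 and Rpl5 at -0.07 were not called (edgeR adjusted p of 0.76 and 0.26).

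**Figure D2:**
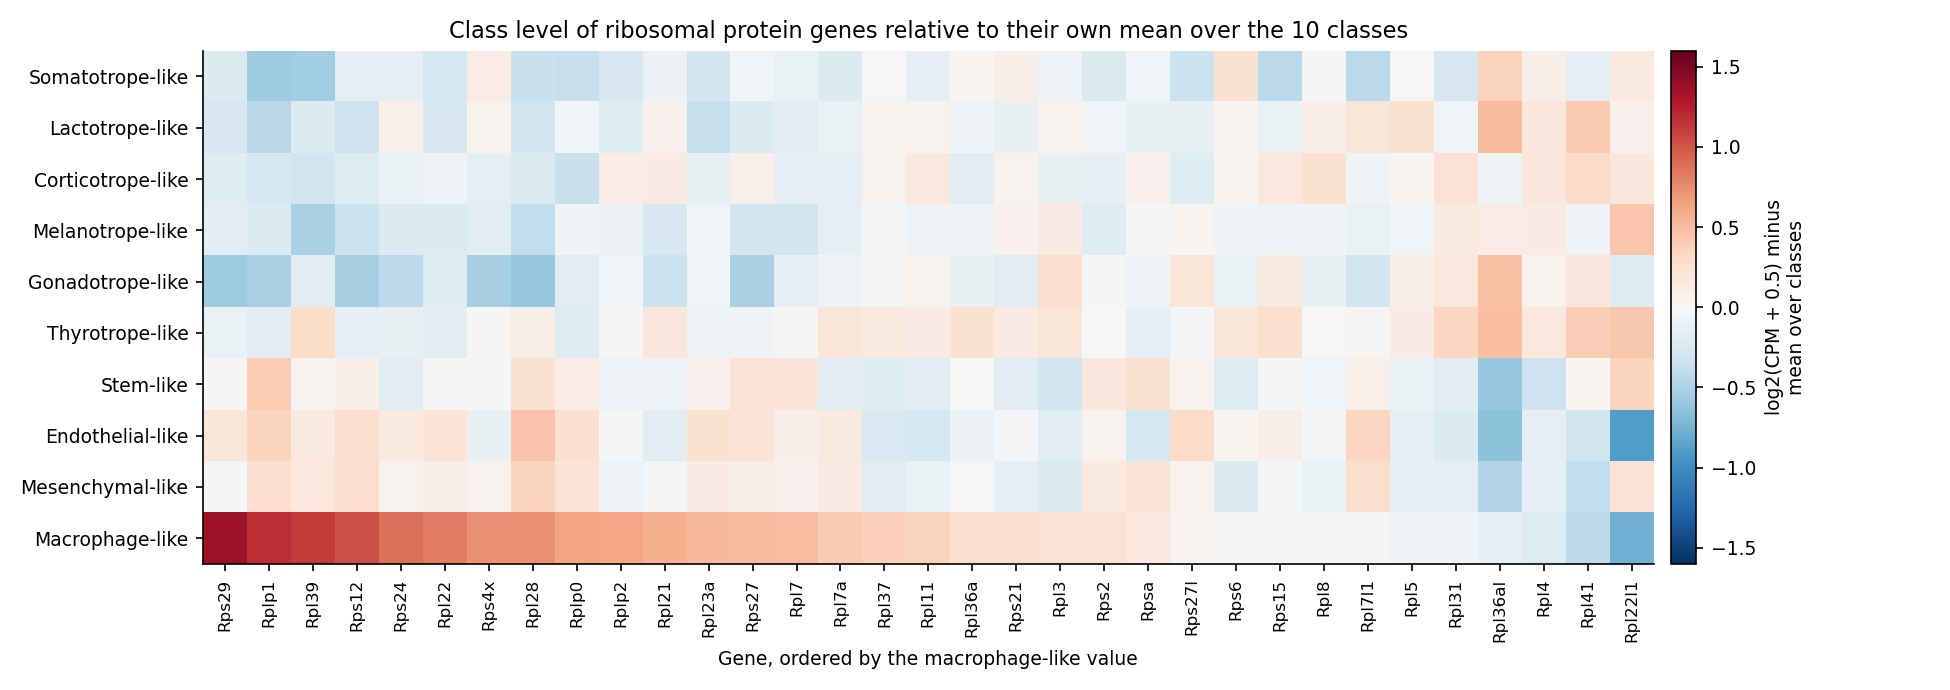
Mean over the 4 libraries of log2(CPM + 0.5) of each gene in each class, minus the gene's own mean over the 10 classes (color; red is higher). The columns are the members named in the text that reached 10 CPM in a class, ordered by the macrophage-like value; Rps29 is at the left end, and Rpl22l1, Rpl41 and Rpl4 at the right end are below their mean there.

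In several other classes the balance of higher and lower members depended on scaling. The distance of the member median from that of all genes moved by little, because the common factor of TMM leaves it nearly fixed. Somatotrope-like cells had 48 members higher and 7 lower, where 38.5% and 25.8% of all genes were called higher and lower. Without TMM these counts were 13 and 42, against 22.9% and 40.8% of all genes. The member median exceeded that of all genes by 0.13 in both fits. Stem-like cells had 6 members higher and 60 lower, against 38.3% and 25.1% of genes, and without TMM 13 and 40, against 44.5% and 17.2%. The member median was below that of all genes by the same amount in both, at -0.33.

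Corticotrope-like cells had 5 members higher and 51 lower, against 34.4% and 26.3% of genes, and without TMM 25 and 23, against 44.7% and 17.9%. Mesenchymal-like cells had 4 and 55, against 26.5% and 19.2%, and without TMM 20 and 24, against 32.6% and 11.4%. Thyrotrope-like cells had 15 and 20, against 29.3% and 19.4%. Without TMM they had 34 and 8, against 33.5% and 15.3%, and with the hormone genes left out 10 and 29, against 26.5% and 22.0%. Endothelial-like cells had 21 and 34, against 33.8% and 30.3%, and without TMM 29 and 30, against 35.3% and 28.0%. The stem-like, mesenchymal-like and endothelial-like cells thus had more members lower than higher under both scalings. So did the gonadotrope-like, melanotrope-like and lactotrope-like cells. Gonadotrope-like cells had 6 and 53 (34.2% and 27.0% of genes), and without TMM 9 and 50 (36.1% and 23.6%). Melanotrope-like cells had 6 and 41 (34.2% and 25.2%), and without TMM 7 and 41 (34.2% and 23.6%). Lactotrope-like cells had 9 and 32 (34.5% and 25.5%), and without TMM 11 and 26 (35.6% and 23.4%).

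Large-subunit members gave between 53.5% and 59.0% of ribosomal protein UMIs in every tested class and library. Among the tested classes their share was lowest in macrophage-like cells, at 53.8% ± 0.303, and highest in gonadotrope-like cells, at 58.7% ± 0.266 (SD, n = 4 each). These 2 ranges did not overlap. Of the 2 subunits of the mitochondrial ribosome, whose proteins carry Mrpl and Mrps symbols, 78 genes were measured. In macrophage-like cells 7 of them were higher and 30 lower, where 25.1% and 32.0% of all genes were. Their median there was -0.20, against -0.39 for all genes, and without TMM it was -0.67, against -0.85. In gonadotrope-like cells 59 were higher and 3 lower, where 34.2% and 27.0% of all genes were. Their median there was 0.36, against 0.01 for all genes and -0.22 for the cytosolic members, and without TMM the 3 medians were 0.41, 0.07 and -0.18. Of 22 translation factors and other mRNAs with the 5′ pyrimidine run, a list that holds the ribosomal proteins Rack1 and Fau, 19 were higher and 2 lower in macrophage-like cells, and 11 and 3 without TMM. Of 27 ribosome assembly factors, 8 were higher and 5 lower there, a share called higher near that of all genes, and without TMM 5 and 14.

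The paralog pairs gave class patterns of their own, and a ratio of 2 genes in a library does not depend on scaling. Rpl22 and Rpl22l1 encode alternative forms of a large-subunit protein that binds RNA. Rpl36a on chromosome X and Rpl36al on chromosome 12 encode near-identical forms of another. Upstream sequences of these genes are shown because their members differ in class pattern. They run from 120 bases before to 30 after the start in RefSeq on GRCm38.p6, on the gene's strand. Capitals mark matches, on either strand, to any of 4 motifs whose letters are given after the sequences: the ETS core, the YY1 core, a short pyrimidine run and the TATA box. The first of the 2 listed Rpl22 starts is shown, from chr4:152325606-152325755, then Rpl22l1 from chr3:28805388-28805537, Rpl36a from chrX:134585534-134585683 (all plus strand) and Rpl36al from chr12:69184038-69184187 (minus strand).
Rpl22: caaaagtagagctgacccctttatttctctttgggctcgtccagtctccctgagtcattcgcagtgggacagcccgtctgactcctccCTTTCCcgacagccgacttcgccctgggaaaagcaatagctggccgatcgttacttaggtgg
Rpl22l1: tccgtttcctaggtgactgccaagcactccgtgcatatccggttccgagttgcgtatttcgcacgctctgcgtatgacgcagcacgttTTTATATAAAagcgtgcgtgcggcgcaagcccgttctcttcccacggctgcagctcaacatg
Rpl36a: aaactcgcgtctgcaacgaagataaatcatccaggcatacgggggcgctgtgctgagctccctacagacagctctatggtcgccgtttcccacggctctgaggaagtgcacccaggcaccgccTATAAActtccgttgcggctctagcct
Rpl36al: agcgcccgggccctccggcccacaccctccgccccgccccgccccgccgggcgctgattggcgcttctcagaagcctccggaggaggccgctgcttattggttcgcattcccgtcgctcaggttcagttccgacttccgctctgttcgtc

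In the Rpl22l1 window TATAAA matched on both strands, and the 2 matches overlap, while in the Rpl36a window it began after the listed start. Rpl22 held CTTTCC and no TATAAA, and none of the 4 motifs matched in the Rpl36al window. Over full 300-base windows, of which 76 belonged to 64 members found in the table, 35.5% held the ETS core, searched as CCGGAAG, against 8.86% of all 32851 windows. The YY1 core, searched as AAGATGG, was in 15.8% of the members' windows and 6.34% of all. The pyrimidine run CTTTCC was in 50% against 26.6%. The TATA box, searched as TATAAA, was in 9.21% against 13.6%. These are matches of letters, not sites of binding.

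Rpl22l1 was above Rpl22 in 8 classes and below it in 2. In endothelial-like cells Rpl22l1 had 448, 566, 440 and 569 CPM in HFD 1, HFD 2, CTRL 1 and CTRL 2. Rpl22 had 962, 917, 943 and 893 CPM there in the same order. In macrophage-like cells Rpl22l1 had 479, 589, 536 and 596 CPM, against 1412, 1490, 1424 and 1362 CPM of Rpl22. The order was the same in all 4 libraries of both classes, with log2 ratios of Rpl22l1 over Rpl22 of -0.89 ± 0.25 and -1.37 ± 0.15 (SD, n = 4 each).

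Melanotrope-like cells stood at the other end. Rpl22l1 had 1272, 1359, 1212 and 1225 CPM there in HFD 1, HFD 2, CTRL 1 and CTRL 2, against 657, 689, 710 and 695 CPM of Rpl22. The log2 ratio was 0.88 ± 0.10, with thyrotrope-like cells at 0.82 ± 0.05 within the spread. Gonadotrope-like cells had the smallest positive ratio, 0.20 ± 0.08 (SD, n = 4 each). Every library of the 6 hormone classes had a positive ratio, between 0.09 and 0.98. Against the other classes Rpl22l1 was lower in endothelial-like cells, with a log2 difference of -1.05 ± 0.077 (edgeR adjusted p = 1.6e-14) and in macrophage-like cells, at -0.39 ± 0.075 (edgeR adjusted p = 2.8e-05; -0.85 without TMM), and higher in melanotrope-like cells by 0.48 ± 0.066 (log2, SE; edgeR adjusted p = 1.0e-07). Rpl22 was higher in macrophage-like cells, by 1.39 ± 0.045 (edgeR adjusted p = 2.3e-25).

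The balance of Rpl36al and Rpl36a separated the hormone classes from the other 4 tested classes. In lactotrope-like cells, which make prolactin, Rpl36al had 810, 829, 794 and 970 CPM in HFD 1, HFD 2, CTRL 1 and CTRL 2, and in gonadotrope-like cells 809, 890, 813 and 812 CPM. In stem-like cells it had 337, 401, 420 and 417 CPM, and in endothelial-like cells 375, 363, 406 and 378 CPM in the same order. Rpl36a was more even, from 654 ± 43.0 CPM in corticotrope-like to 893 ± 84.2 CPM in macrophage-like cells (SD, n = 4 each).

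The log2 ratio of Rpl36al over Rpl36a lay between -0.34 and 0.52 in every library of the 6 hormone classes. In every library of the stem-like, endothelial-like, mesenchymal-like and macrophage-like cells it lay between -1.01 and -0.54, so the 2 sets did not overlap. Against the other classes Rpl36al was lower in stem-like cells, at -0.82 ± 0.068 (edgeR adjusted p = 3.8e-13), in endothelial-like cells at -0.79 ± 0.068 (edgeR adjusted p = 1.2e-12) and in mesenchymal-like cells at -0.71 ± 0.070 (log2, SE; edgeR adjusted p = 6.6e-11). It was higher in somatotrope-like cells by 0.71 ± 0.058, in lactotrope-like cells by 0.52 ± 0.060 and in gonadotrope-like cells by 0.48 ± 0.060 (0.40 in somatotrope-like cells without TMM; edgeR adjusted p at most 1.5e-08), and in thyrotrope-like cells by 0.45 ± 0.060 (edgeR adjusted p = 1.3e-07). In 2 classes the call rested on scaling. Corticotrope-like cells were at -0.27 ± 0.064 (edgeR adjusted p = 0.00043), and without TMM at -0.08 (edgeR adjusted p = 0.29). Macrophage-like cells were at 0.32 ± 0.064 (log2, SE; edgeR adjusted p = 6.0e-05), and without TMM on the other side of 0, at -0.15 (edgeR adjusted p = 0.043). The ribosomal protein genes have many near-identical processed copies, and how reads shared with them or between Rpl36a and Rpl36al were assigned is not given in the sources used here, so these levels are uncertain. The 5 genes with pseudogene symbols in the matrices held 10856 UMIs.

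**Figure D3:**
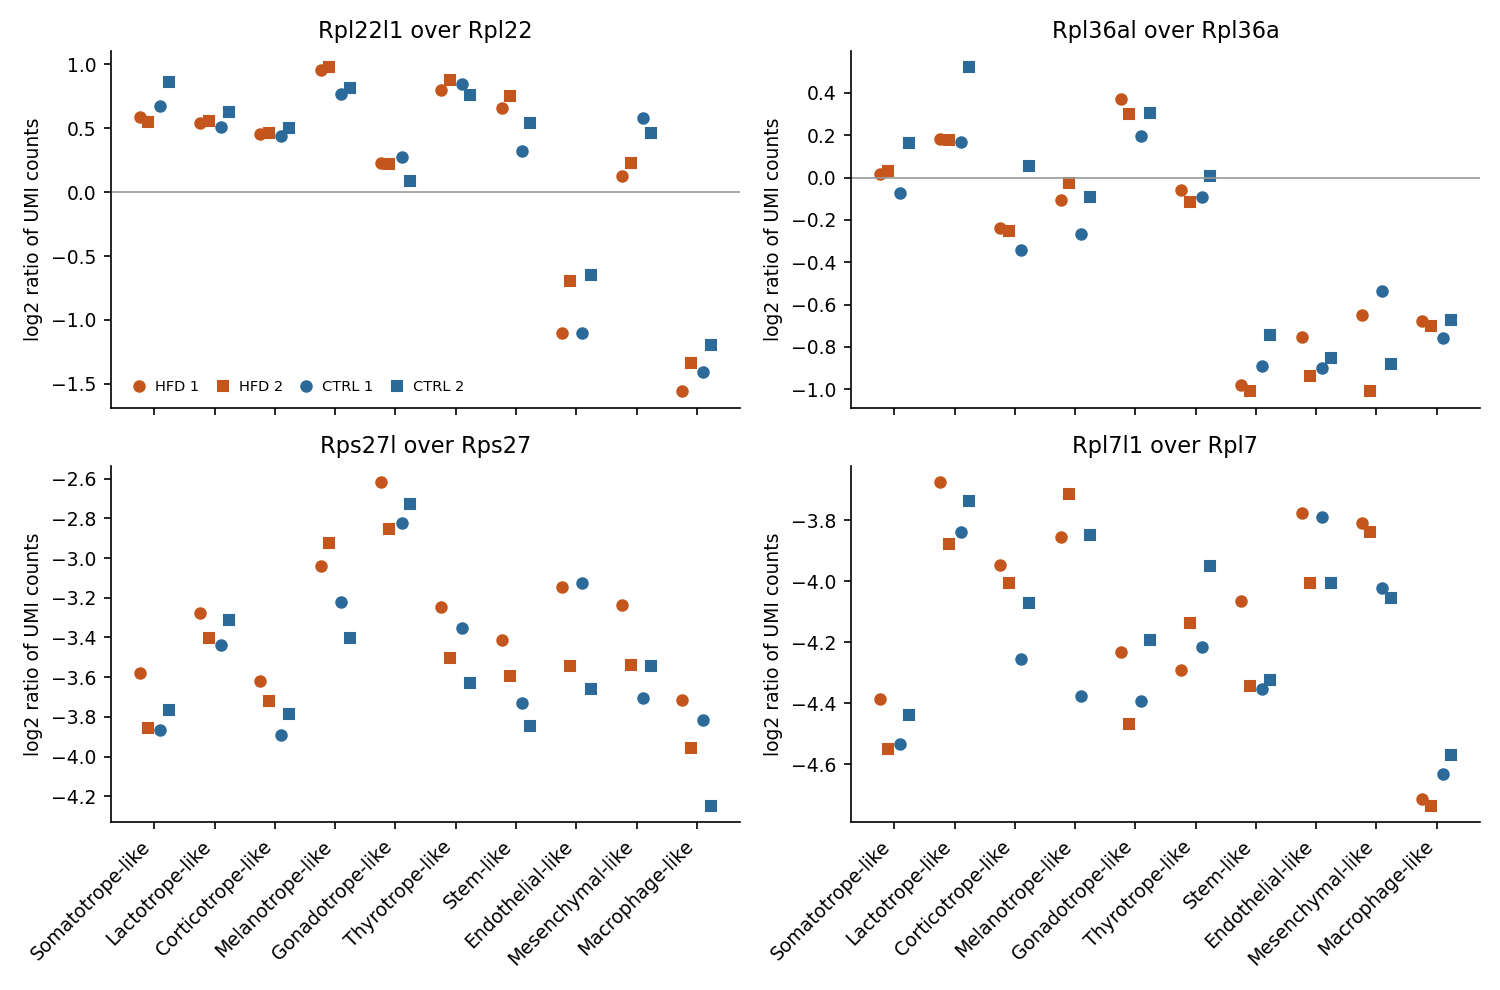
Log2 ratio of UMI counts of a paralog over its main gene (y axis) in each tested class (x axis), 1 point per library, with HFD left of CTRL. Rpl22l1 over Rpl22 is negative in endothelial-like and macrophage-like cells, and Rpl36al over Rpl36a is at or below -0.54 in the 4 classes that make no hormone; the panels have their own y ranges.

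The other paralogs were minor partners everywhere. Rps27l, a p53 target that differs from Rps27 by few residues, made up between 6.21% (macrophage-like) and 12.7% (gonadotrope-like) of the pair's UMIs. Rpl7l1, a paralog of Rpl7 that is also known from ribosome assembly, made up between 3.77% (macrophage-like) and 6.81% (lactotrope-like). Rpl39l, best known from the testis, had 6 UMIs in 3309804 of macrophage-like cells, which is 1.81 CPM (exact 95% interval 0.665 to 3.95), and 8 in 8308092 of endothelial-like cells, 0.963 CPM (0.416 to 1.90). In somatotrope-like cells it had 2 in 125532906. Rpl3l, the form of heart and skeletal muscle, had 11 UMIs in somatotrope-like, 8 in lactotrope-like and 6 in thyrotrope-like cells, 5 of these 6 from HFD 2. Rpl10l, another testis form, had 2 UMIs in lactotrope-like cells and 1 in melanotrope-like cells. Intervals cover counting error only, and free RNA in the droplets can give such counts.

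Between the diets, only gonadotrope-like cells gave members past the threshold. Of 810 pairs of a member and a class, 2 were called by edgeR, Rpl21 and Rpl3, both higher in HFD gonadotrope-like cells, where 1.05% of the 12584 genes were called higher and 1.96% in either direction. The 81 members tested had a median log2 difference of 0.15 there, against 0.00 for all genes, and 75 were above 0 and 38 had an unadjusted p under 0.05. Of the 12584 genes, 50.3% were above 0 and 2687 had an unadjusted p under 0.05. Without TMM the members' median was 0.01 and that of all genes -0.13. The members lay above the median gene by 0.15 with TMM and 0.14 without, a distance that this scaling leaves nearly fixed. Their own median was near 0 without TMM. In CPM, 17 members had both HFD libraries above both CTRL libraries and 15 had both below, against 14.1% and 41.1% of all genes.

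Rpl21, a large-subunit protein, had 1344 and 1376 CPM in HFD and 1215 and 1159 CPM in CTRL libraries of gonadotrope-like cells. Both HFD values were above both CTRL values. The log2 difference was 0.33 ± 0.063 (SE; edgeR adjusted p = 0.034). It was past the threshold in 12 of the 13 alternatives and not without TMM, where it was 0.20 (edgeR adjusted p = 0.10). The gene has processed copies, and it lies at chr5:146832890-146837032 on the plus strand of mm10.

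Rpl3, which reaches into the peptidyl transferase center, had 2167 and 2144 CPM in HFD and 1886 and 1995 CPM in CTRL libraries. The HFD libraries were higher, by 0.29 ± 0.063 (log2, SE; edgeR adjusted p = 0.049), and in 6 of 13 alternatives the adjusted p rose above 0.05, among them no TMM (0.15; edgeR adjusted p = 0.17), the shared barcodes kept (0.26; edgeR adjusted p = 0.060) and CTRL 1 left out (0.25; edgeR adjusted p = 0.052). Rplp0 had 1331 and 1314 CPM in HFD and 1207 and 1190 CPM in CTRL libraries, 0.28 ± 0.063 apart on the log2 scale (SE; edgeR adjusted p = 0.054), which passed in 6 of 13 alternatives. Rps12, a small-subunit protein, lay the other way, with 458 and 500 CPM in HFD and 595 and 597 CPM in CTRL libraries. Its log2 difference was -0.18 ± 0.071 (SE; edgeR adjusted p = 0.19), and without TMM it was the 1 member called, at -0.31 (edgeR adjusted p = 0.040). Without TMM 567 of all 12584 genes were called lower.

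**Figure D4:**
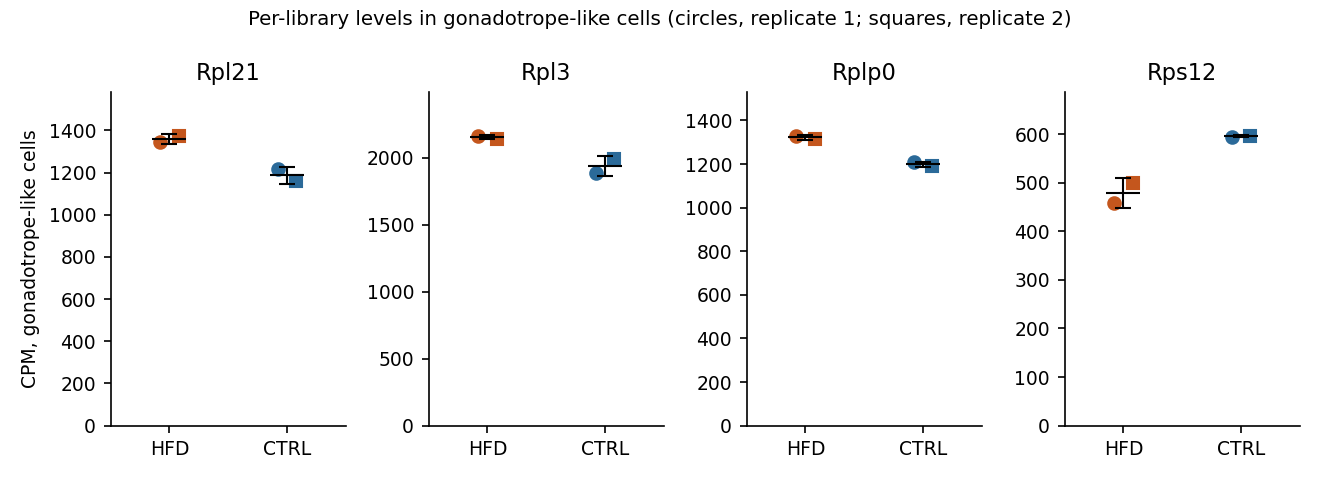
Level in gonadotrope-like cells (y axis, CPM, from 0) of 4 ribosomal protein genes in HFD and CTRL libraries; points are libraries, and bars are the mean and SD of 2. HFD points are above CTRL points for Rpl21, Rpl3 and Rplp0 and below them for Rps12.

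The mitochondrial ribosomal proteins of gonadotrope-like cells lay to the same side, with a median of 0.24, 73 of 78 above 0 and 1 called higher, and without TMM a median of 0.11 and none called. Translation factors had a median of 0.11 with none of 22 called, and assembly factors a median of 0.07 with none of 27 called. Of 15 genes of the mTORC1 pathway and its control of these mRNAs, 1 was called lower and the median was -0.07. The cytosolic members, by subunit, had medians of 0.15 (large, 49 tested) and 0.14 (small, 32 tested).

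In somatotrope-like cells no member was called, where 0.055% of 14551 genes were. An unadjusted p under 0.05 was found for 6 members and for 2668 of the 14551 genes. Rplp0 had the smallest p of the members, with 1072.5 and 975.03 CPM in HFD and 1119 and 1236 CPM in CTRL libraries. Its HFD values were the lower, at -0.36 ± 0.073 (log2, SE; edgeR adjusted p = 0.12), on the other side of 0 from gonadotrope-like cells. DESeq2 gave -0.36 (DESeq2 adjusted p = 0.0060). Rpl4 had 388 and 383 CPM in HFD and 434 and 417 CPM in CTRL libraries, or -0.30 ± 0.088 on the log2 scale (SE; edgeR adjusted p = 0.17). The member median was -0.07 with TMM and 0.08 without, so its sign depended on scaling. Its distance from the median gene, which this scaling leaves nearly fixed, was -0.07 under both.

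In the other 8 tested classes and in all cells together no member passed the edgeR threshold. The share of all genes called was 0.0% in endothelial-like and stem-like cells, 0.0078% in melanotrope-like, 0.0226% in mesenchymal-like, 0.0302% in macrophage-like, 0.0776% in thyrotrope-like, 0.262% in corticotrope-like and 1.04% in lactotrope-like cells. It was 0.0108% in all cells, where 1841 of 18527 genes but no member had an unadjusted p under 0.05. Corticotrope-like cells had the next highest member median, 0.10, with 79 of 81 above 0. Without TMM it was 0.02, against -0.08 for all genes. The smallest p there was that of Rpl7l1, at 50.5 and 50.7 CPM in HFD and 37.7 and 43.2 CPM in CTRL libraries, or 0.40 ± 0.130 on the log2 scale (SE; edgeR adjusted p = 0.32). Both HFD libraries were above both CTRL libraries, and without CTRL 2 it was past the threshold, at 0.51 (edgeR adjusted p = 0.026). Rpl7 followed, at 780 and 815 CPM in HFD and 720 and 726 CPM in CTRL libraries (log2 0.22; edgeR adjusted p = 0.50). In mesenchymal-like cells the members' median was -0.11 and in stem-like cells -0.08, with 12 and 21 of 81 above 0. Their smallest p-values were those of Rpl31 and Rpl36al in mesenchymal-like and Rpl23a and Rpl4 in stem-like cells, with log2 differences from -0.25 to -0.35 and edgeR adjusted p of at least 0.76.

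In the remaining classes differences were small. Rps15 and Rps2 led in lactotrope-like cells at -0.20 and -0.18, Rpl7a and Rps15 in endothelial-like cells at -0.15 each, and Rpl7 and Rpl11 in macrophage-like cells at 0.17 and -0.13. Rpl7l1 and Rpl41 led in melanotrope-like cells at 0.39 and 0.22, and Rpsa and Rps21 in thyrotrope-like cells at -0.18 each (all log2; edgeR adjusted p at least 0.455). In all cells together, Rpl4 (-0.16) and Rpl7 (0.13) had the smallest p-values (edgeR adjusted p at least 0.54).

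**Figure D5:**
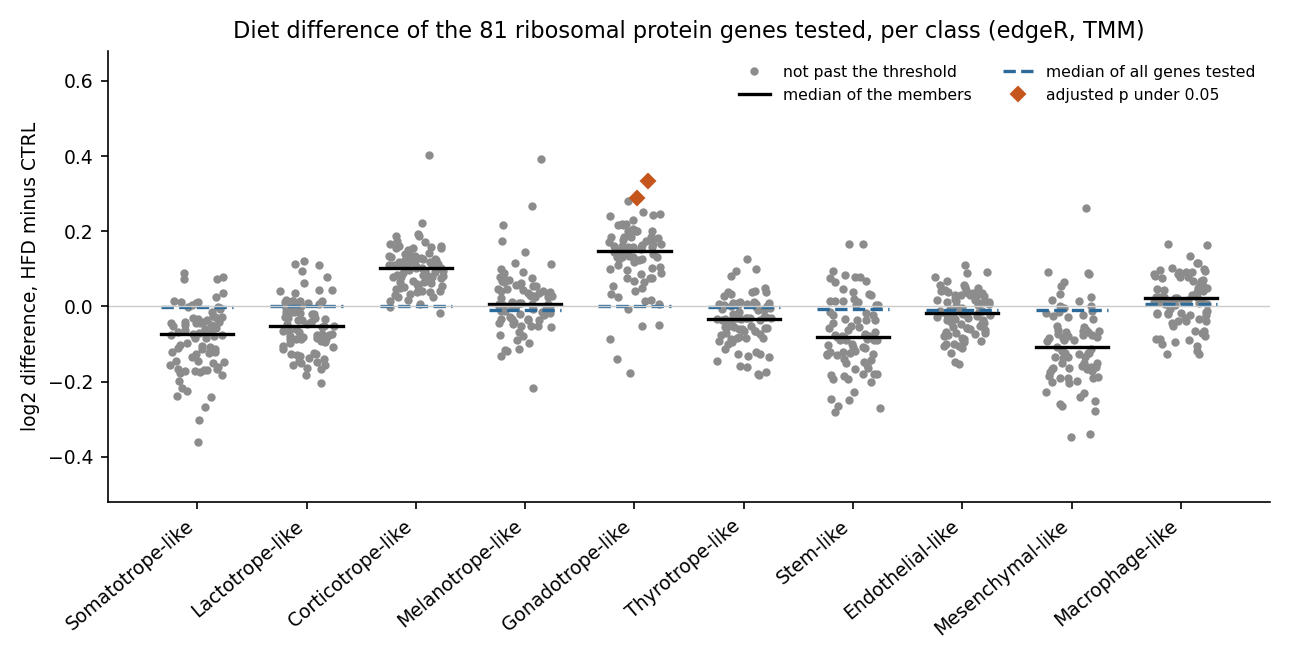
Log2 difference of HFD minus CTRL (y axis, edgeR with TMM) of the 81 ribosomal protein genes tested in each class (x axis); each point is a gene, solid bars are member medians, dashed bars medians of all genes tested. Diamonds mark Rpl21 and Rpl3 in gonadotrope-like cells, where the member median is 0.15.

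Whether a diet difference in 1 class departed from the mean of the other classes was tested as an interaction. None of 820 pairs passed the edgeR threshold, with 35 at an unadjusted p under 0.05. Of all 15759 genes, between 742 (endothelial-like) and 1809 (gonadotrope-like) were at such a p in a class. Rpl3 in gonadotrope-like cells came nearest, at 0.31 ± 0.093, with Rpl21 at 0.30 ± 0.095 (log2 with SE; adjusted p of 0.19 and 0.21 by edgeR), where 0.0635% of 15759 genes were called. Rplp0 stood at 0.31 ± 0.111 in gonadotrope-like cells and at -0.37 ± 0.110 in somatotrope-like cells (log2 with SE; adjusted p of 0.26 and 0.20 by edgeR). The share of all genes called in this test was 0.26% in corticotrope-like, 0.146% in somatotrope-like, 0.0254% in mesenchymal-like, 0.0127% each in lactotrope-like, melanotrope-like and stem-like, and 0.0% in endothelial-like, macrophage-like and thyrotrope-like cells.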

How the data were processed

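The deposited values are UMI counts per gene and cell barcode, 1 matrix per library. They came from Cell Ranger 6.1.2 on mm10, and Seurat 4.3 is also named, per the submitters' processing notes. The annotation and strand setting they used is not given in the sources used here. Members, gene lists and markers were chosen with earlier results of these data known.

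Barcodes that were low-depth copies of another library's were removed, then cells with under 500 genes or over 20% mitochondrial UMIs, then the highest-scored simulated-doublet neighbours at 0.8% per 1000 cells. Cells were clustered with scanpy 1.11.5 and leidenalg 0.10.2 (2000 variable genes without the members, 30 components, 20 neighbours, resolution 0.8). A cluster was named where 3 markers were in at least 10% of its cells at a log2 difference of 1 or more and 60% of cells held 2 markers. These limits were set after the clusters were seen and before any diet comparison. The 288 cells of the unnamed cluster, led by Ighm and Coro1a, entered only the values over all cells.

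Kept UMIs were 64457740 in HFD 1, 87311750 in HFD 2, 85332276 in CTRL 1 and 91783839 in CTRL 2. Counts were summed per class and library and tested with edgeR 4.0.16 (quasi-likelihood, TMM, R 4.3.3) on all genes passing its filter, with Benjamini-Hochberg adjustment, and the fits were tested on simulated data. Alternatives were DESeq2 1.42.0, no TMM, no filter on low counts, the hormone genes left out, stricter cells, doublets kept, clustering with the members, a replicate block, each library left out, and the shared barcodes kept. Named members were the paralog pairs, the stalk, 5S and kinase-substrate proteins, those past the threshold or the 2 with the smallest p in each diet fit, the 10 with the widest class spread, and the 3 highest and 3 lowest by UMIs, and some of these are not reported here. Free RNA in droplets was not subtracted. Gene positions are from GENCODE on mm10.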

Additional observations from a re-analysis of the deposited data

Results flagged for a closer look

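In 6 classes both HFD libraries lay on 1 side of both CTRL libraries in the share of UMIs from ribosomal protein genes, and the classes went in opposite directions. In a given class, an order of libraries that ignores diet gives such a separation with a probability of 0.333. The log2 ratio of HFD over CTRL was 0.079 in somatotrope-like and 0.31 in T or NK cell-like cells. It was -0.033 in endothelial-like, -0.044 in melanotrope-like, -0.16 in pericyte-like and -0.35 in pituicyte-like cells. The difference between classes was not tested. The pericyte-like, pituicyte-like and T or NK cell-like classes had under 30 cells in at least 1 library. With the shared barcodes kept, no pericyte-like class was formed and melanotrope-like libraries overlapped. With doublets kept, melanotrope-like and endothelial-like libraries overlapped. Macrophage-like libraries, which overlapped with doublets removed (log2 ratio 0.0012), then had both HFD above both CTRL libraries (0.071). Without the hormone genes they overlapped there too (0.0082).

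Paralog ratios also separated the diets in some classes, in opposite directions. With 2 libraries per diet, an order of libraries that ignores diet separates a given ratio with a probability of 0.333. For Rpl22l1 over Rpl22 the log2 ratio of HFD minus CTRL was 0.17 in melanotrope-like and 0.28 in stem-like cells, and -0.34 in mesenchymal-like and -0.20 in somatotrope-like cells. For Rpl7l1 over Rpl7 it was 0.19 in corticotrope-like and 0.21 in mesenchymal-like cells, and -0.13 in macrophage-like cells. For Rpl36al over Rpl36a it was -0.18 in stem-like cells. In the other tested classes the HFD and CTRL libraries overlapped for each of these pairs. The differences between classes in these ratios were not tested.

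A signal outside the comparisons was the set of 4104 barcodes of HFD 1 that repeated a barcode of another library at low depth. Their UMIs held 11.7% ribosomal protein genes, close to the 12.0% of the kept HFD 1 cells.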

How the results depend on the processing

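Of 810 pairs of a member and a class, 2 were called between diets. The count was 28 with no filter on low counts, 4 with DESeq2, 6 with the hormone genes left out, 1 without TMM (Rps12, lower), and 1 with the members used in clustering. It was 1 with the replicate block. Leaving out each library gave 2 to 3, and stricter cells, doublets kept and shared barcodes kept gave 2 each. In gonadotrope-like cells without TMM, 77 of all 12584 genes were called higher and 567 lower. With the hormone genes left out, 168 of 12603 were called higher there and 130 lower. The shares of all genes called under the other alternatives are not reported here. Among named members, 296 diet values kept their direction and side of the threshold, 9 passed it and 7 fell short. Class calls numbered 554, between 488 and 514 with a library left out and between 518 and 600 otherwise, and 315 named class values kept direction and side, 2 fell short and 7 changed sign. Both that fell short were without TMM, at -0.08 for Rpl36al in corticotrope-like and 0.02 for Rps6 in macrophage-like cells. In macrophage-like cells without TMM, Rpl36al changed sign to -0.15, Rpl5 to -0.068 and Rpl41, at 0.00 with TMM, to -0.46. Rpl41 was also below 0 there with no filter on low counts (-0.010) and ran from -0.015 to 0.017 with a library left out. Interaction calls were 0 in every alternative run; DESeq2 was not run for it.

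The log2 ratio of shares moved to -0.019 in endothelial-like cells and to 0.071 in macrophage-like cells with doublets kept. With the hormone genes left out it was 0.070 in gonadotrope-like, -0.056 in lactotrope-like, -0.038 in somatotrope-like and -0.0097 in all cells. With a library left out it ran from 0.033 to 0.13 in somatotrope-like and from -0.0068 to 0.027 in gonadotrope-like cells. With doublets kept, Rpl22l1 over Rpl22 was -0.61 in endothelial-like, -0.98 in macrophage-like and 0.94 in thyrotrope-like cells, and Rpl36al over Rpl36a was -0.66, -0.47 and -0.14 in the same order. The causes were not tested.

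Under the replicate block, with 1 pair called in place of 2, the libraries were paired by number. Same-numbered libraries deviated together only weakly (r = 0.074). A weak correlation cannot show whether they shared a day or a run. Keeping the shared barcodes and all alternatives for class values and paralog ratios were chosen after seeing the data. Depth limits Rpl39l, Rpl3l and Rpl10l to a few UMIs.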

Other observations

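Fau, a gene outside the symbol rule whose product is cut to give a small-subunit protein, had 6273 and 6960 CPM in HFD and 6962 and 6987 CPM in CTRL libraries of macrophage-like cells, above every library of the other tested classes.

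Rps27l over Rps27 was higher in both HFD libraries than in both CTRL libraries in 4 of the 10 tested classes. An order of libraries that ignores diet separates a given ratio, in either direction, with a probability of 0.333. The classes come from the same 4 libraries, so they are not independent. The log2 ratio of HFD minus CTRL was 0.17 in corticotrope-like, 0.33 in melanotrope-like, 0.24 in mesenchymal-like and 0.28 in stem-like cells, and in no tested class were both HFD libraries below.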
